A study of Brachypodium distachyon with 11 samples.

Results

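MicroRNA (miRNA) genes of Brachypodium distachyon were examined for sites bound by 3 clock and light-signalling proteins. The members were all genes of biotype miRNA with a symbol beginning with MIR on chromosomes 1 to 5 of the RefSeq gene table of this grass (Bd21 assembly), which gave 310 of 31197 genes. They carried 183 family numbers, and 141 families had a single member. A member was called bound in a library when a peak of that library's list overlapped the annotated gene body by at least 1 bp, and the same call for the body extended by 2 kb on both sides is given as the 2 kb rule. Family names come from the symbols alone. Families were divided into a list of 28 known from many plants or grasses, of which 27 were present with 110 members, and the other 156 families with 200 members.

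Chromatin was taken from seedlings of the Bd21-3 line that overexpressed tagged ELF3 (a scaffold of the evening complex, a repressor within the circadian clock), PHYC (a phytochrome photoreceptor) or PRR37 (a pseudo-response regulator, also called PPD1). Each transgene was driven by a ubiquitin promoter and carried a FLAG tag, and chromatin was recovered with an anti-FLAG gel (ChIP-seq). The promoter is constitutive, but the amount of protein need not be constant. The paper reports that tagged ELF3 protein built up at night, fell rapidly in light and was lower in long than in short days. Plants were 2 weeks old, kept at 20 °C, and the light regime was long days (LD), short days (SD) or continuous light (LL). Harvest times are given as ZT0, ZT4 and ZT20, where ZT counts the hours from lights on, a daily event that LL lacks. In the day lengths that the paper used for flowering time, ZT20 was lights-off in LD and within the night in SD. The paper's ChIP-seq methods do not restate the hours. ELF3 had 7 libraries, from LD and SD at each of the 3 times and from LL at ZT0, while PHYC had 2 libraries of LD at ZT20 and PRR37 had 1 of LD at ZT4. Each ELF3 condition and PRR37 had a single library, nothing in the labels marks the PHYC libraries as coming from different plants, and no peak list of the 1 input sample or of untagged plants was analysed here. Each list held 12345 to 16458 peaks called at p under 0.1, of which 34 to 526 had q under 0.01, the threshold named in the study's methods. The sequencing depth of the libraries was unknown.

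Plant miRNAs are cut from folded hairpin transcripts made by RNA polymerase II from their own genes. The mature miRNA guides an Argonaute protein to complementary messenger RNAs, mostly those of transcription factors, and lowers their output. In grasses the MIR156 and MIR172 families time the passage from juvenile to adult growth and to flowering, and other old families act on organ polarity, growth, hormone responses and mineral nutrition. The annotated miRNA genes were short, with bodies of 58 to 598 bp and a median of 145 bp, so the body rule tests mainly the hairpin and the 2 kb rule also takes in neighbouring sequence.

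Few miRNA genes were bound over their body in any library. In the ELF3 LD lists 24, 23 and 20 members were bound at ZT0, ZT4 and ZT20 (7.74%, 7.42% and 6.45% of 310), where 27.1%, 26.4% and 26.6% of all genes were bound. The ELF3 SD lists of the same times each held 19 bound members (6.13%), against 26.3%, 24.4% and 26.5% of all genes. The LL list held the most, 27 members (8.71%), against 29.6% of all genes. The PHYC lists held 13 and 15 members (4.19% and 4.84%), against 23.5% and 20.1% of all genes, and the PRR37 list held 14 (4.52%), against 21.4%. The exact Clopper-Pearson 95% intervals of these shares ran from 2.25 to 7.06% in the lowest list and from 5.82 to 12.4% in the highest, and they cover counting error only. All genes are mostly far longer than a hairpin. Among 913 genes of other short RNAs (tRNA, snoRNA and snRNA), 3.18 to 7.45% were bound per list, a share below that of the miRNA genes in the 7 ELF3 lists and above it in the 3 lists of PHYC and PRR37.

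**Figure D1:**
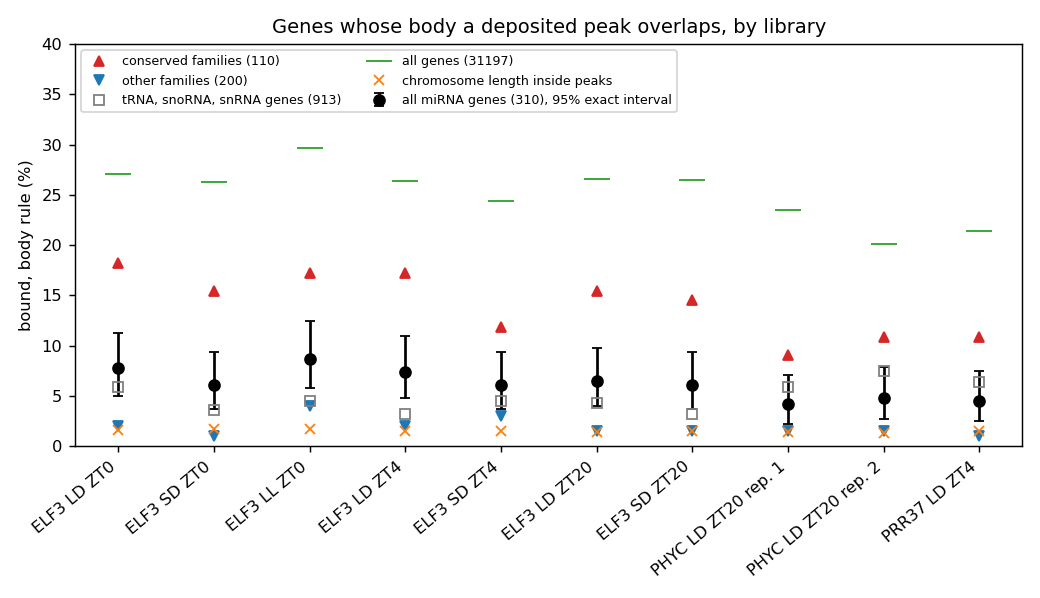
The share of genes whose body a peak overlaps (vertical axis, percent) in each of the 10 libraries (horizontal axis), for all miRNA genes with 95% exact intervals, conserved and other families, other short RNA genes, all genes, and the share of chromosome length inside peaks. Conserved families lay between 9.09 and 18.2% in every list and other families between 1 and 4%. Peaks covered 1.32 to 1.74% of the chromosomes, a share of bases that is not a chance level for the 1 bp overlap rule.

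The bound members belonged mainly to the conserved families. Conserved families had 20, 19 and 17 bound members in the ELF3 LD lists of ZT0, ZT4 and ZT20, 17, 13 and 16 in the SD lists, 19 in LL, 10 and 12 in the PHYC lists and 12 in PRR37, out of 110. The other families had 2 to 8 bound members per list out of 200. Shares of the 2 sets did not overlap between lists, at 9.09 to 18.2% against 1 to 4%. Neighbouring protein-coding genes differed between these sets: 11 of the 110 conserved members (10%) and 82 of the 200 others (41%) overlapped one, and their part in the result was not tested. Among members more than 2 kb from any protein-coding gene, 21 of 69 conserved members (30.4%) and 6 of 65 others (9.23%) were bound in any list. Bound in any list were 33 conserved members (30%) and 13 others (6.5%), together 46 members (14.8%) of 28 families, while 51% of all genes and 14.2% of the other short RNA genes were bound in any list.

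Coverage by peaks was highest close to conserved hairpins. At 200 bp from the gene centre, averaged over both sides, 9.09% of positions beside conserved members lay inside a peak (mean of 10 lists, range 6.82 to 11.4%), and at the centre itself the mean was 4.45%. The other members had a mean of 1.25% at the centre. Centres of all members lay inside a peak in 0.968 to 4.19% of cases per list, those of protein-coding genes in 0.676 to 1.21%, and the ends of protein-coding genes in 5.77 to 7.41%. Over the 193 pairs of a bound member and a list, the summit lay inside the hairpin in 35 (18.1%) and a median of 152 bp from its centre. Peaks on conserved members were thus mostly beside the hairpin, with an edge reaching into it. Strand was not used here, so the side of the hairpin could not be named as upstream or downstream.

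**Figure D2:**
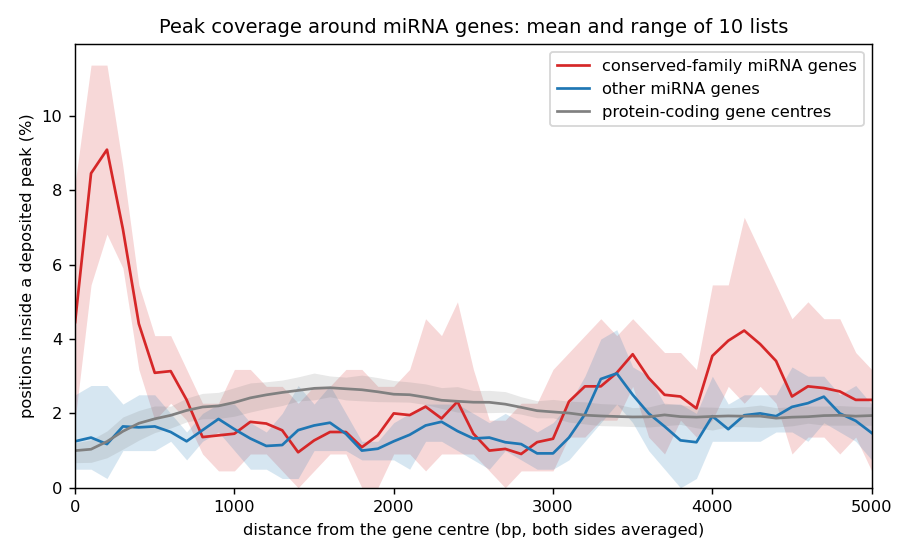
The share of positions inside a peak (vertical axis, percent) against the distance from the gene centre (horizontal axis, bp, both sides averaged), for conserved and other miRNA genes and for protein-coding gene centres. Lines are means of the 10 lists and bands their lowest and highest list. The conserved members reach 9.09% at 200 bp, while the other members stay at or under 3.08% throughout.

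With 2 kb added to both sides, 89, 86 and 79 members were bound in the ELF3 LD lists of ZT0, ZT4 and ZT20, where 43.8%, 42.3% and 42.2% of all genes were bound. The SD lists held 75, 74 and 77 members, against 42.4%, 39.9% and 41.7% of all genes, and LL held 96, against 46.4%. The PHYC lists held 71 and 59 members, against 39% and 35.6%, and PRR37 held 53, against 36%. As shares of 310 these are 17.1 to 31.0%. In each of the 10 lists the members' share was below that of all genes, and the other short RNA genes had 29.8 to 37.0%. In any list 162 members (52.3%) of 101 families were bound, comprising 68 conserved members (61.8%) and 94 others (47%), where 72.7% of all genes were.

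With q under 0.01 the ELF3 lists held 5, 3 and 5 members in LD at ZT0, ZT4 and ZT20, 1, 2 and 1 in SD, and 2 in LL, where 0.833%, 0.619%, 0.875%, 1.18%, 0.577%, 0.442% and 1.41% of all genes passed. The PHYC lists held 3 and 2 members, against 1.16% and 0.414% of all genes, and PRR37 held 0, against 0.0801%. These 24 pairs of a member and a list came from 6 genes, and a further 113 of the 193 pairs had a q of 1. The median fold enrichment of peaks on members was 2.55, and that of all peaks was 2.32.

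Of the 46 bound members, 7 were bound in all 10 lists, which is 15.2% of them. Among all genes 8.03% were bound in all 10 lists, or 15.7% of those bound in any. The 7 were MIR528, MIR159B, MIR396B, MIR5055, MIR166E, MIR166B and MIR166G, and 6 of them belong to conserved families. At the other end 12 members (3.87%) were bound in a single list and 264 (85.2%) in none, against 11% and 49.0% of all genes. Fold enrichment below is the value given for the summit, over a background that the sources used here do not describe. Since the depth of the libraries was unknown, the rank of the peak in its own list (1 is the lowest p) is given as well.

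**Figure D3:**
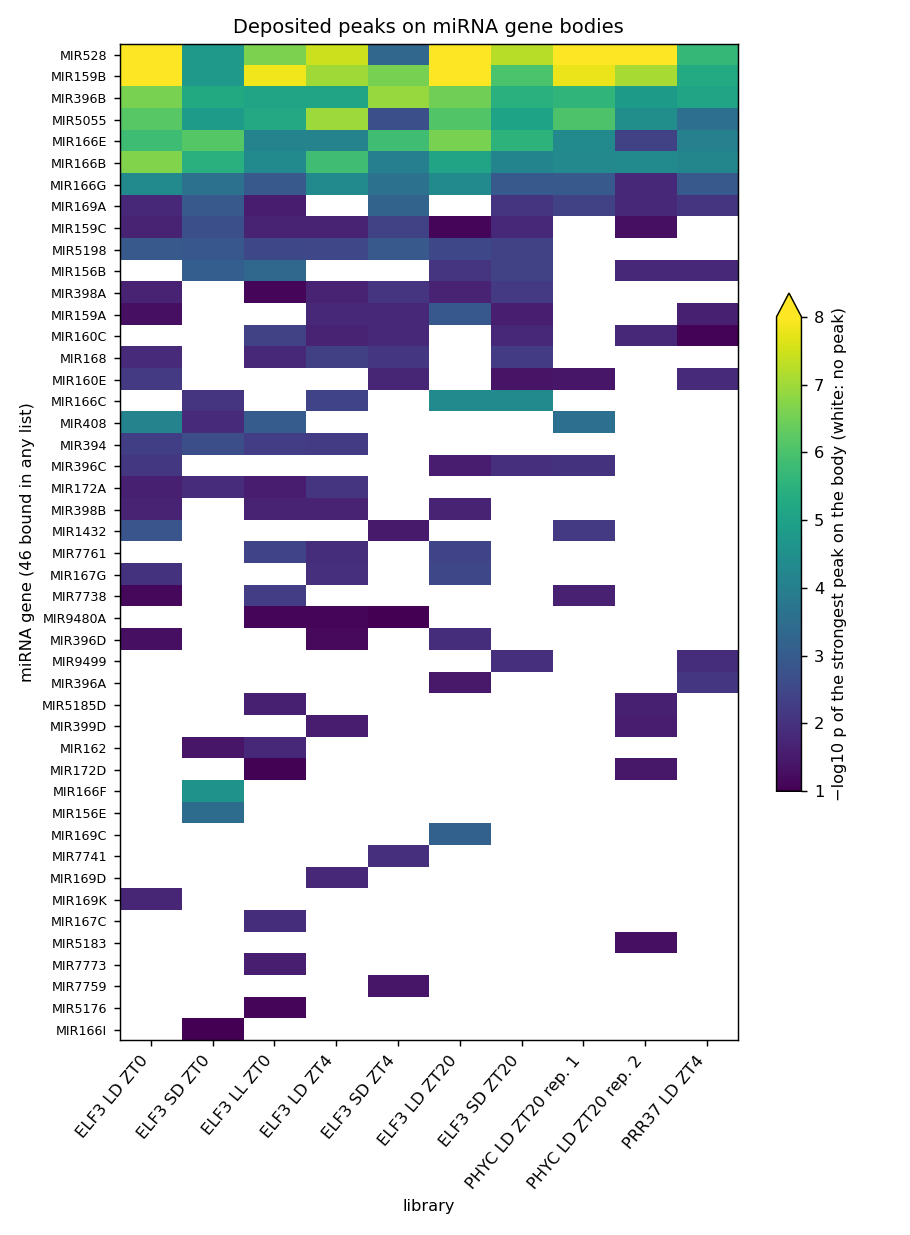
The strength of the strongest peak on each of the 46 bound miRNA genes (rows, ordered by number of lists) in the 10 libraries (columns). Colour gives −log10 p from 1 to 8 and white marks no peak. The 7 genes at the top have a peak in every library, and most entries under them are near the threshold of the lists.

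MIR528 belongs to a monocot family known in rice to act on ascorbate oxidase transcripts. Its fold enrichment was 5.74, 4.66 and 5.12 in the ELF3 LD lists of ZT0, ZT4 and ZT20, 3.52, 2.93 and 4.78 in the SD lists of the same times, 4.38 in LL, 6.16 and 5.47 in the PHYC lists, and 4.003 in PRR37. The highest value was that of the first PHYC library and the lowest that of ELF3 SD ZT4, and the LD and SD values overlapped because SD ZT20 exceeded LD ZT4. Its peak ranked 35 to 1949 within its list and passed q under 0.01 in 7 lists, the exceptions being SD ZT0, SD ZT4 and PRR37. The peaks lay within chr1:73294066-73295683, and in 4 lists (LL, ELF3 LD ZT20 and both of PHYC) they were wider than 1 kb, up to 1424 bp, against 588 bp or less in the others. Summits fell within 87 bp of each other in the 10 lists and 8 to 95 bp outside the hairpin. The nearest protein-coding gene, LOC100829237, was 720 bp away.

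MIR159B belongs to the family that acts on GAMYB transcription factors of the gibberellin response, with roles in anther development and flowering. Fold enrichment there was 4.94, 4.39 and 5.19 in the ELF3 LD lists of ZT0, ZT4 and ZT20, 3.31, 4.27 and 4.05 in SD, 4.84 in LL, 4.95 and 4.45 in PHYC and 3.85 in PRR37. Each LD value of ELF3 exceeded each SD value. The peak ranked 60 to 956, passed q under 0.01 in 7 lists (not in ELF3 SD ZT0, SD ZT20 or PRR37), and lay within chr2:1096867-1097378, with summits 134 to 173 bp outside the hairpin. The other members of the family, MIR159C and MIR159A, were bound in 8 and 6 lists. Fold enrichment at MIR159C was 1.87 to 2.16 in the ELF3 LD lists, 2.03 to 2.82 in SD, 2.10 in LL and 1.98 in the second PHYC list, and the LD and SD ranges overlapped. MIR159C overlaps an annotated pseudogene, LOC100834848. MIR159A had 1.97, 2.07 and 3.098 in LD, 2.201 and 2.27 in SD ZT4 and ZT20, and 2.21 in PRR37.

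MIR396B belongs to the family that acts on growth-regulating factors, which promote leaf and organ growth. Fold enrichment was 4.496, 3.86 and 4.39 in the ELF3 LD lists of ZT0, ZT4 and ZT20, 3.90, 4.57 and 4.20 in SD, 3.78 in LL, 4.16 and 3.96 in PHYC and 3.80 in PRR37. These values spanned a narrow range and those of LD and SD overlapped. Ranks ran from 117 to 757, q was under 0.01 in 3 lists (LD ZT0, SD ZT4 and LD ZT20 of ELF3), and the peaks lay within chr5:27293758-27294146. Of its 5 family members, MIR396C was bound in 4 lists, MIR396D in 3, MIR396A in 2 and MIR396E in none. Within 2 kb MIR396D had a peak in 8 lists, MIR396C in 6, MIR396E in 3 and MIR396A in 2.

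MIR166 acts on class III homeodomain-leucine zipper factors, which set the upper side of leaves, and 3 of its 9 members were bound in every list. MIR166E had fold enrichments of 4.44, 3.65 and 4.62 in the ELF3 LD lists of ZT0, ZT4 and ZT20, 4.51, 4.28 and 4.01 in SD, 3.60 in LL, 3.44 and 2.67 in PHYC and 3.40 in PRR37. Its 3 lowest values were those of PHYC and PRR37, and LD overlapped SD. MIR166B had 4.64, 4.07 and 3.95 in LD, 3.97, 3.42 and 3.35 in SD, 3.42 in LL, 3.35 and 3.63 in PHYC and 3.49 in PRR37. MIR166G had 3.60, 3.58 and 3.58 in LD, 3.09, 3.28 and 2.92 in SD, 2.96 in LL, 2.86 and 2.32 in PHYC and 2.84 in PRR37. Every LD value of ELF3 at MIR166G was above every SD value, whereas at MIR166B SD ZT0 exceeded LD ZT20. The peaks lay within chr3:51198202-51198615 (MIR166E), chr1:30781438-30781768 (MIR166B) and chr4:37525704-37526014 (MIR166G), and q under 0.01 was reached in 2, 1 and 0 lists. All 3 loci were over 4 kb from a protein-coding gene, at gaps of 6648, 5585 and 4657 bp. MIR166C was bound in 4 lists, MIR166F and MIR166I in 1 each (ELF3 SD ZT0), and the remaining 3 members in none. These counts are of the body rule. Within 2 kb MIR166H had a peak in all 10 lists, MIR166F in 9, MIR166C in 8, MIR166A in 4 and MIR166I in 1. Median distances from summit to gene centre were 336.5 bp at MIR166H, 229 bp at MIR166F and 157 bp at MIR166C.

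MIR5055 was the 1 gene outside the conserved families with a peak in every list, and no role is given for it here. Fold enrichment was 4.46, 4.77 and 4.64 in the ELF3 LD lists of ZT0, ZT4 and ZT20, 3.99, 2.83 and 4.02 in SD, 4.08 in LL, 4.39 and 3.78 in PHYC and 3.42 in PRR37. The LD values of ELF3 were all above the SD values and LL. Ranks ran from 134 in LD ZT4 to 3178 in SD ZT4, and q was under 0.01 in the 3 LD lists of ELF3 and in the first PHYC list. The peaks, within chr3:13990198-13990651, had their summit inside the annotated body in all 10 lists, unlike the other 6 genes, and the protein-coding gene LOC100835114 lay 487 bp away.

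**Figure D4:**
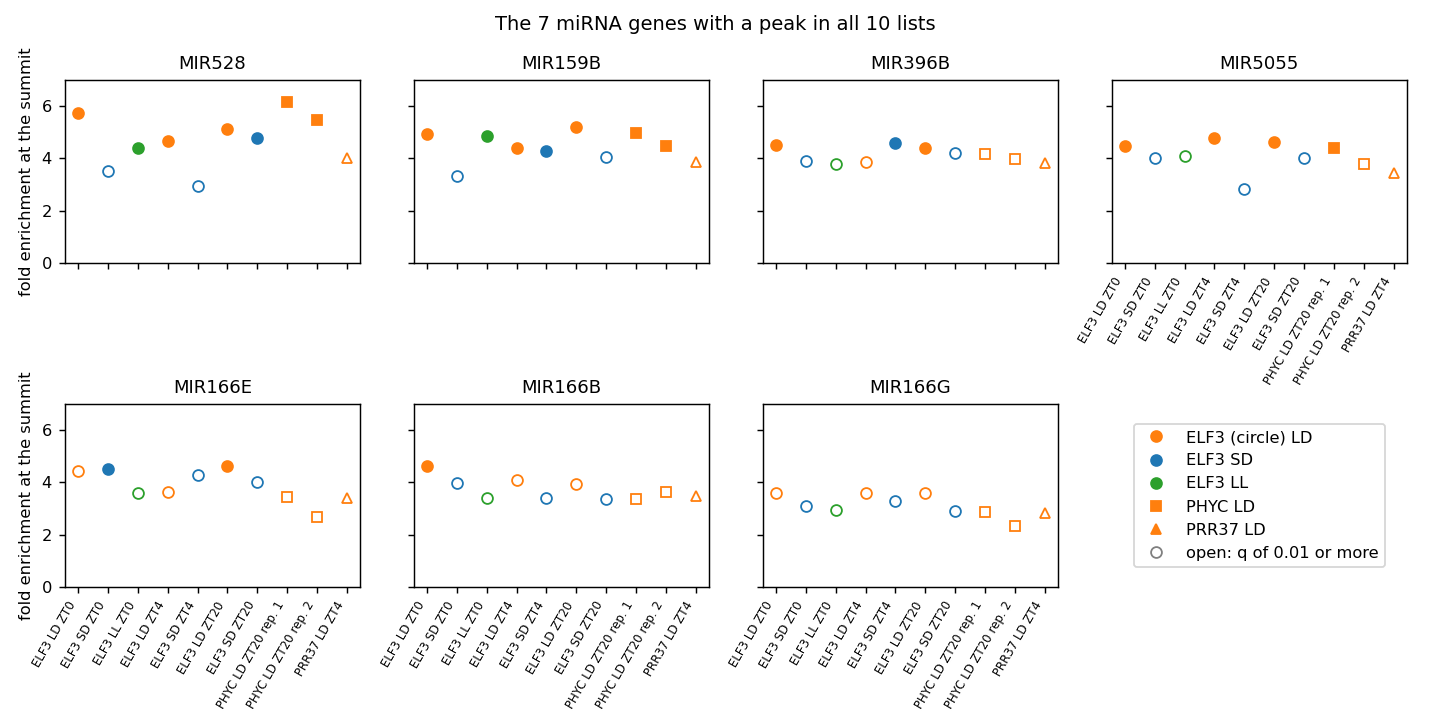
Fold enrichment at the summit (vertical axis, linear, from 0) of the 7 miRNA genes bound in all 10 lists, by library (horizontal axis). Colour marks the photoperiod, shape the tagged protein, and open symbols a q of 0.01 or more. MIR528 has the widest range, 2.93 to 6.16, and MIR396B the narrowest, 3.78 to 4.57.

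Summits of the 7 genes were found at nearly the same position in every list, within 29 to 87 bp of each other and on one side of the gene centre. For the 16 members bound in 5 or more lists, the spread was 29 to 566 bp (median 79 bp), and 14 of them had all summits on one side of the centre. The exceptions were MIR159C and MIR160C, with spreads of 266 and 566 bp. Of the 16, 14 belong to conserved families and 1 overlaps a protein-coding gene.

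The families that act on flowering and growth phase (MIR156, MIR172, MIR159, MIR319, MIR169 and MIR529) had 33 members, of which 11 were bound in any list and MIR159B in all 10. Over all 310 miRNA genes 14.8% were bound in any list and 2.26% in all 10, and over all genes 51% and 8.03%. The flowering and growth phase families all belong to the conserved list, whose 110 members had 30% and 5.45%. The family counts that follow stand beside these shares. MIR156, which lowers SPL transcription factors and holds plants in the juvenile phase, had 2 bound members of 10. MIR156B had fold enrichments of 2.83 and 2.61 in the ELF3 SD lists of ZT0 and ZT20, 3.19 in LL, 2.22 in LD ZT20, 2.19 in the second PHYC list and 2.30 in PRR37, and MIR156E had 3.16 in ELF3 SD ZT0. No pattern by photoperiod was complete at MIR156B, which lacked a peak in SD ZT4. By the 2 kb rule 8 of the 10 members were bound, and MIR156B and MIR156D in all lists. Under that rule 52.3% of miRNA genes, 61.8% of conserved members and 72.7% of all genes were bound in any list. MIR156E, MIR156F and MIR156G lie in 1 cluster and had the same fold enrichments (2.26 to 3.20) in 8 lists. They are therefore not separate observations. MIR172, which acts on AP2-like repressors of flowering, had 2 bound members of 3. MIR172A was bound in 4 ELF3 lists, at 2.09 in LD ZT0, 2.29 in SD ZT0, 2.12 in LL and 2.22 in LD ZT4, and MIR172D, which overlaps the protein-coding gene LOC100828894, in LL and the second PHYC list at 1.65 and 1.94. The 4 lists with a peak at MIR172A were from ZT0 and ZT4 and none from ZT20, but ELF3 SD ZT4 and PRR37 LD ZT4 also had no peak. These peaks were weak, with −log10 p of 1.54 to 2.08 and ranks of 7694 to 13606. The share of all genes with this pattern was not computed. MIR169, which acts on NF-YA subunits, had 4 bound members of 14. MIR169A was bound in 8 lists at 2.12 to 2.89, missing in ELF3 LD ZT4 and LD ZT20, and the other 3 in 1 list each. MIR319 (2 members, TCP factors) and MIR529 (1 member, SPL factors) had no peak on the body. MIR5200, which in Brachypodium acts on transcripts of the flowering signal FT, had 3 members and no peak under either rule, and it was singled out after its values were seen.

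Families of the auxin response had 15 members, of which 4 were bound in any list. That held for 14.8% of all miRNA genes, 30% of conserved members and 51% of all genes. MIR160C and MIR160E, of the family that acts on repressing auxin response factors, were bound in 6 and 5 lists at 1.55 to 2.55 and 1.94 to 2.35, and each included ELF3, PHYC and PRR37 lists. MIR167G and MIR167C, of the family that acts on activating auxin response factors, were bound in 3 lists and 1 list, and the 2 members of MIR393 (auxin receptors) in none. Copper-related families, whose targets include copper-containing enzymes, had 3 bound members of 5. These again stand beside 14.8% of miRNA genes, 30% of conserved members and 51% of all genes. MIR398A was bound in 6 lists, all of ELF3, at 1.82 to 2.44, MIR398B in 4, all of ELF3, at 2.02 to 2.34, and MIR408 in 3 ELF3 lists and the first PHYC list, at 1.99 to 2.99. The 2 members of MIR397 (laccases) had no peak on the body. MIR168 and MIR162, which act on the transcripts of AGO1 and DCL1 of the miRNA pathway itself, were bound in 5 and 2 ELF3 lists, at 2.05 to 2.57 and 1.85 to 2.09, and in no PHYC or PRR37 list. MIR394, which acts on an F-box gene, was bound in 4 ELF3 lists at 2.37 to 2.80. All of these peaks had a q above 0.01.

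Of the 27 conserved families 12 had no member with a peak on the body in any list. They included MIR395, the largest family with 16 members, which acts on sulphate assimilation, as well as MIR171 with 6 (GRAS factors) and MIR164 with 5 (NAC factors). MIR2275, MIR2118 and MIR390, which trigger phased small RNAs, had 5 members and no peak under either rule. MIR399, which acts on the phosphate regulator PHO2, had MIR399D bound in 2 lists among 4 members, and MIR827 had none. The 2 kb rule took in 11 of the 16 MIR395 members, all in ELF3 LL ZT0 and in no other list, and this count came from 2 weak peaks (fold 1.77 and 2.13, −log10 p of 1.40 and 1.54) in a single cluster of neighbouring hairpins. MIR395 members in a cluster are therefore not separate observations. Counting all members within 2 kb of each other once left 285 units. Among the large families outside the conserved list, MIR5185 had 1 bound member of 13 (7 under the 2 kb rule), MIR5174 0 of 6 (1 under the 2 kb rule), and MIR5181 0 of 5 (5 under the 2 kb rule). Over all members outside the conserved list, 6.5% were bound in any list by the body rule and 47% by the 2 kb rule.

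**Figure D5:**
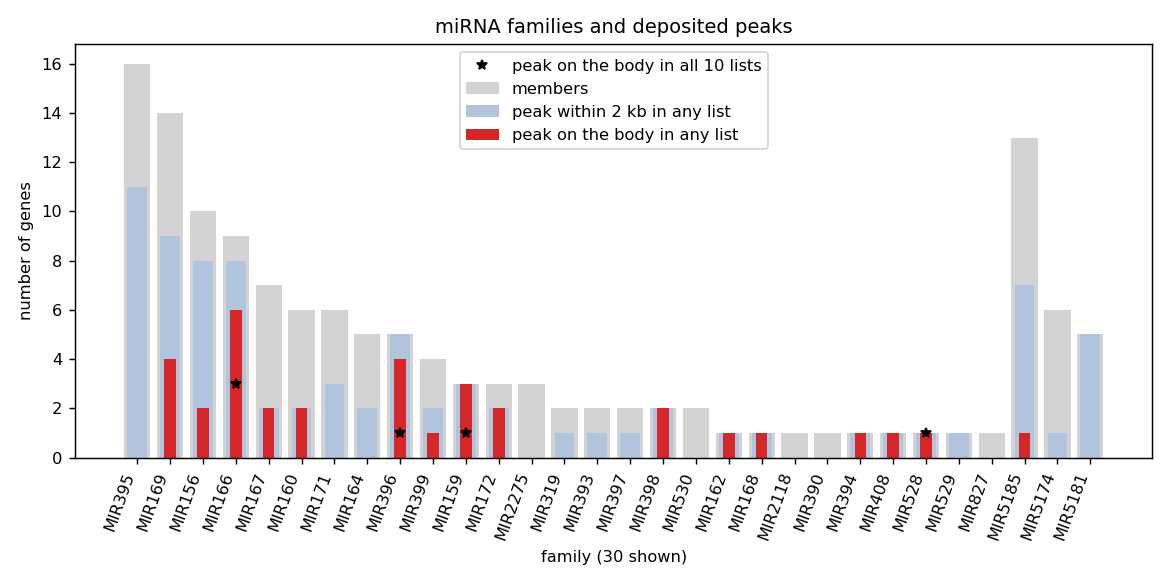
The number of genes (vertical axis) in the conserved families and in other families with at least 4 members (horizontal axis). Grey bars are all members, blue those with a peak within 2 kb in any list, red those with a peak on the body in any list, and stars the number bound in all 10 lists. MIR166 has 6 of 9 members bound over the body, MIR396 4 of 5, and MIR395 0 of 16.

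Within 2 kb of the body and with q under 0.01, the ELF3 lists held 5, 4 and 8 members in LD at ZT0, ZT4 and ZT20 (1.29%, 0.958% and 1.36% of all genes), 3, 2 and 1 in SD (1.96%, 0.881% and 0.667%) and 6 in LL (2.16%). The PHYC lists held 7 and 2 members (1.9% and 0.664% of all genes) and PRR37 held 0 (0.109%). This added 6 genes with such a peak nearby and none on the body. MIR7778 had a peak in all 10 lists at fold enrichments of 3.25 to 4.97 (median 4.02), past q under 0.01 in 4 lists, with a median of 1684 bp from summit to gene centre. MIR9492 likewise had a peak in all 10 lists, at 3.39 to 4.87 (median 3.95), past the threshold in 4 lists, and 1327 bp from the centre. Both had fold enrichments within the range of the recurrent genes at a distance of more than 1 kb from the centre, and a protein-coding gene lay 592 bp from MIR9492 and 5315 bp from MIR7778. MIR399B and MIR7717C passed the threshold in 2 lists each, and MIR171A and MIR5181C, which both overlap a protein-coding gene, in LL alone. All 4 had a peak with a q above 0.01 in the remaining lists. In total 22 members were bound in all 10 lists under the 2 kb rule (13.6% of the 162, against 20.8% of genes bound in any list and 15.1% of all genes), and 13 of them had no peak on the body in any list.

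The comparison of proteins asked whether miRNA genes were taken up differently by ELF3, PHYC and PRR37. Of the 46 members, 11 were bound in at least 1 list of each protein (23.9%, against 33.2% of bound genes and 16.9% of all genes). Another 23 were bound in ELF3 lists and in no PHYC or PRR37 list (50%, against 35.2% of bound genes and 18% of all genes), with 7 ELF3 lists set against 3 of the others. MIR5198 was the 1 member bound in all 7 ELF3 lists and in none of the other 3, a pattern that 0.24% of all genes had. Its fold enrichment was 2.76, 2.74 and 2.71 in LD at ZT0, ZT4 and ZT20, 2.70, 2.70 and 2.61 in SD, and 2.62 in LL. These values differed little, none passed q under 0.01, and the hairpin lies in the protein-coding gene LOC100824126. No member was bound in both PHYC lists and no ELF3 list (0.228% of all genes), and MIR5183 was the 1 member bound in a PHYC list and no ELF3 list (2.19% of all genes). Within 2 kb, MIR7763 joined MIR5198 (0.333% of all genes). MIR7787 was bound in both PHYC lists and no ELF3 list (0.276% of all genes), at 1.87 and 1.95. MIR5182 was bound in PRR37 alone, at a weak peak (fold 1.73, −log10 p of 1.13). The share of all genes bound in PRR37 alone was not computed.

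To take account of list length, the share of members bound was divided by the share of all genes bound in the same list and put on a log2 scale. The mean was −1.95 ± 0.15 (SD, n = 7) for ELF3 and −2.26 ± 0.22 (SD, n = 3) for PHYC and PRR37 together, a difference of 0.31 (exact two-sided permutation test, p = 0.0333, adjusted p = 0.0667 over 4 contrasts). Under the 2 kb rule the difference was 0.23 (exact p = 0.0167, adjusted p = 0.0667, smallest p possible 0.00833). Neither contrast passed 0.05 after adjustment. The libraries on each side were not replicates of 1 condition, and the 2 PHYC libraries may come from the same plants. With these 2 averaged into 1 sample, the body-rule difference was 0.305 (exact permutation p = 0.0278, unadjusted, the smallest possible). With the other short RNA genes in place of all genes the difference of the body rule was 1.30 (exact p = 0.00833, unadjusted). Those short RNA genes were bound at 3.18 to 5.91% in the ELF3 lists, 5.91% and 7.45% in PHYC and 6.35% in PRR37. The share of all genes ran the other way, lower in PHYC and PRR37 than in every ELF3 list. The value of 1.30 therefore also holds a difference of the short RNA genes. Against all genes, the protein difference was 0.19 with the 10000 strongest peaks of each list (exact p = 0.00833, unadjusted). It turned to −0.24 (exact p = 0.267) when peaks were limited to p under 0.001. It fell to 0.20 (exact p = 0.167) without the first PHYC library, and the ELF3 libraries covered more light regimes and times than the others. At matched light and time, the shares of members bound were 6.45% for ELF3 against 4.19% and 4.84% for PHYC (LD ZT20), and 7.42% for ELF3 against 4.52% for PRR37 (LD ZT4), with 26.6%, 23.5%, 20.1%, 26.4% and 21.4% of all genes bound in these lists in the same order.

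The PHYC libraries, which carry the same labels, shared 8 bound members, 61.5% of the 13 in the first and 53.3% of the 15 in the second. Over all genes the shared part was 62.1% and 72.5%. Within 2 kb they shared 38 members, or 53.5% of 71 and 64.4% of 59, against 69.8% and 76.5% over all genes. The shared 8 included the 7 recurrent genes. All 13 members of the first PHYC list (100%) were among the 24 of ELF3 LD ZT0, of which they made up 54.2%, against 76.5% and 66.2% of the genes of these lists. The second PHYC list shared 9 of its 15 members (60%, against 76.2% of its genes) with ELF3 LD ZT0 and 13 (86.7%, against 78.4%) with ELF3 LL ZT0. ELF3 LD ZT0 and LL ZT0 shared the most members of any ELF3 list with the first and second PHYC list, and differ from PHYC in harvest time. At matched light and time, ELF3 LD ZT20 shared 8 of the 13 (61.5%) and 9 of the 15 (60%). The shared part over all genes was not computed for this matched comparison.

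The comparison of photoperiods used the 3 LD and 3 SD libraries of ELF3. The log2 ratio of the members' share to that of all genes was −1.89 ± 0.13 (SD, n = 3) in LD and −2.07 ± 0.07 (SD, n = 3) in SD, a difference of 0.18 (exact two-sided permutation test, p = 0.2, adjusted p = 0.2). Under the 2 kb rule the difference was 0.12 (exact p = 0.1, adjusted p = 0.133). With 3 libraries against 3, p cannot go below 0.1, and the LD and SD values of the body rule overlapped. Taken at the same time, LD exceeded SD by 0.29 at ZT0, 0.16 at ZT4 and 0.07 at ZT20, and by 0.20, 0.13 and 0.02 under the 2 kb rule (exact sign-flip permutation over the 3 times for the body rule, p = 0.25, the smallest it can give). This pairing by time was added after the values had been seen. The size of the difference changed with the peak threshold. It was 1.55 with q under 0.01 (exact p = 0.1), where 1 to 5 members were bound per list, and −0.072 with p under 0.001 (exact p = 0.3). With the other short RNA genes in place of all genes it was 0.02 (exact p = 1).

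MIR396D, MIR167G and MIR398B were bound in the 3 LD lists and in no SD list of ELF3 (0.539% of all genes had this pattern), and no member had the reverse (0.305% of all genes). Fold enrichment in LD at ZT0, ZT4 and ZT20 was 1.74, 1.54 and 2.18 at MIR396D. It was 2.19, 2.09 and 2.59 at MIR167G. It was 2.34, 2.02 and 2.11 at MIR398B, which was also bound in LL at 2.03. These were weak peaks, with −log10 p of 1.17 to 2.52 and ranks in the lower part of their lists apart from MIR167G at ZT20. Within 2 kb MIR396D had a peak in all 7 ELF3 lists, including the 3 SD lists, so its pattern held under the body rule only. By the 2 kb rule MIR5185B took the place of MIR396D among the LD genes (0.68% of all genes). MIR7768B was then bound in the 3 SD lists and no LD list (0.423% of all genes).

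Among the 9 members bound in all 6 LD and SD lists of ELF3, 4 had a higher fold enrichment in every LD list than in every SD list (MIR5055, MIR159B, MIR166G and MIR5198), which 7.51% of the 3610 genes bound in all 6 lists had. None of the 9 was higher in every SD list (3.1% of the genes). By rank within the list, MIR5055, MIR159B and MIR166G were stronger in every LD list (5.24% of the genes), and MIR159C in every SD list (4.13% of the genes). The values of MIR5198 in the LD and SD lists differed by less than 0.2 in fold. This comparison was added after the values had been seen and carries no test, and each condition had a single library.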

How the data were processed

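ChIP-seq peak lists of 10 libraries were analysed, and the members and lists were chosen with earlier results of these data known. The methods say that bwa was used for alignment to the Brachypodium genome and MACS2 for peaks, after removal of duplicates. Bowtie2, Trimmomatic, MACS2, Picard and deepTools, with no version, stand in the submitters' processing notes beside a genome build of Arabidopsis. The sources used here do not state whether a control entered peak calling. Lists as deposited by the authors give each peak's position and summit, fold enrichment (a ratio), −log10 of p and q, and a score. No q filter had been applied to them.

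Peaks on chromosomes 1 to 5 (7 peaks lay elsewhere) were intersected with the RefSeq gene table (Bd21 assembly, v3.0), used for names and neighbours, since its equality with the authors' build was not checked. Coordinates are those of the deposited peaks, counted from 1. Genes named were those bound in all 10 lists, those with q under 0.01 in any list, and those following a protein or photoperiod pattern. Families named had at least 4 members or were in the conserved list. Others named were chosen after their values were seen. Contrasts used exact permutation over libraries with Benjamini-Hochberg adjustment. P-values measure only the spread between libraries, which may be technical. Alternatives were other peak thresholds, windows and summit rules, merging of clusters, other backgrounds and omission of libraries. No sequence or strand was used here, so no promoter motif was searched. Scripts ran in Python 3.11.15 with scipy 1.17.1, pandas 2.3.3, numpy 2.4.6 and, for plots, matplotlib 3.10.9. On simulated data the overlap function gave 0 errors in 12000 comparisons.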

Additional observations from a re-analysis of the deposited data

Results flagged for a closer look

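Fold enrichment at MIR5055 in the ELF3 SD ZT4 library was 2.83, far from the other 6 ELF3 libraries, of which the next lowest was 3.99 (SD ZT0) and the highest 4.77 (LD ZT4). The gap to the nearest library was 0.599 of the whole range, above Dixon's 95% critical value for 7 values. In all, 13 sets of 7 values were examined and this was the 1 past its critical value, where chance gives about 1 in 20 sets. In that library the peak had a q of 1 and ranked 3178, while MIR159B and MIR396B ranked 159 and 117 there.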

How the results depend on the processing

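The median share of members bound per library (6.13%) moved to 0.645% with q under 0.01, 2.26% with p under 0.001, 13.2% with 500 bp and 24.5% with 2 kb added to the body, 1.13% by summits within the body, 2.10% by gene centres, 9.70% for members over 2 kb from protein-coding genes, and 3.41% without MIR159, MIR166 and MIR396 (chosen after seeing the data). The number bound in all 10 lists (7) became 0, 4, 14, 22, 1 and 1 under the first 6 of these and 2 without the 3 families, and stayed at 7 to 7 without any single library. The Jaccard index of the PHYC pair (0.4) was 0.667 with q under 0.01 (3 members) and 0.714 with p under 0.001 (7 members). The photoperiod difference (0.18) turned to −0.072 with p under 0.001, −0.0595 with the 10000 strongest peaks of each list and −0.0385 by gene centres, and ranged from 0.13 to 0.25 without single libraries (exact p 0.1 to 0.3). With q under 0.01 it was 1.55 (exact p = 0.1). With the other short RNA genes as background it was 0.02 (exact p = 1) and the protein difference 1.30 (exact p = 0.00833). The share of other short RNA genes bound in PHYC and PRR37 was as high as or higher than in any ELF3 list. The protein difference against all genes (0.31, unadjusted exact p = 0.0333) turned to −0.24 with p under 0.001 (exact p = 0.267). It was 0.19 with the 10000 strongest peaks of each list (unadjusted exact p = 0.00833). For members over 2 kb from protein-coding genes it was 0.34 (unadjusted exact p = 0.0167). It was no longer under 0.05 by exact p with summits (0.88), gene centres (0.36) or without the 3 families (0.41). Without single libraries it ranged from 0.20 to 0.41 (exact p 0.0278 to 0.167), past 0.05 without ELF3 LD ZT4 (0.29), the first PHYC library (0.20) or PRR37 (0.32). Over all alternatives run, the protein difference kept its sign with unadjusted exact p under 0.05 in 14 and above it in 6. In 1 it reversed. The causes were not tested. The protein difference with q under 0.01 could not be computed, because PRR37 had 0 members. The labels give no replicate numbers that pair the groups compared. Depth was unknown, so a member without a peak is not shown to be unbound.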
